A study of Mus musculus with 6 samples.

Results

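The p53 response and DNA damage genes are 34 mouse genes chosen by name: Trp53 and its inhibitors, p53 target genes of arrest, apoptosis and stress metabolism, death receptors, repair genes and the kinases that report DNA damage. They were looked up by Ensembl identifier in the 46603 genes of each count file, and all 34 were found. RNA was sequenced from the whole bone marrow of 6 mice of the C57/Bl6 background aged 8 months, 3 NM1 KO and 3 NM1 WT, with 1 library for each mouse. NM1 KO mice lack nuclear myosin 1, an isoform of the class I myosin gene Myo1c. Each library came from the femurs and tibiae of a single animal, no cell type was sorted, and the labels state neither the sex of the mice nor how the allele was built. In unsorted marrow, fewer cells of a type and less RNA per cell cannot be told apart.

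p53 is a transcription factor that is kept scarce by MDM2, a ligase that marks it for destruction, and by its relative MDM4, which blocks its activity. Broken DNA activates the kinases ATM and ATR. They act in part through CHK2, loosen the grip of MDM2 and MDM4, and let p53 switch on genes that stop the cell cycle, repair DNA or kill the cell. MDM2 is itself a p53 target, which closes a feedback loop. Blood-forming cells are known for a low threshold for death by p53, and much of p53 control acts on the protein, which RNA levels do not show.

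Library totals were 21101616 to 22618802 counts in NM1 KO and 15145052 to 17580660 counts in NM1 WT, which do not overlap. Levels are given as CPM, the usual depth-scaled count, here with TMM library factors, and 1 CPM stands for 14.7 to 23.0 counts. Reads of 4 Y-linked genes were plentiful in NM1 KO 1, NM1 KO 2 and NM1 WT 2 (2723 to 4566 counts) and at 0 counts in NM1 KO 3, NM1 WT 1 and NM1 WT 3. Myo1c had 73.8, 59.1 and 59.7 CPM in the NM1 KO mice and 89.8, 115 and 102 CPM in the NM1 WT mice (adjusted p = 0.0516), a sum over isoforms that does not check the loss of the nuclear form. All 12 neutrophil, 10 erythroid and 10 B cell markers passed the filter on low counts, as did all 12 platelet and 11 stromal markers. Passing this filter therefore does not check the tissue. Summed neutrophil markers lay at 37915 to 49075 CPM in NM1 KO and 48628 to 66199 CPM in NM1 WT, which overlapped. Summed endothelial markers lay at 179 to 251 CPM in NM1 KO and 117 to 177 CPM in NM1 WT. Summed osteoclast markers lay at 898 to 1124 CPM in NM1 KO and 1044 to 1556 CPM in NM1 WT, which overlapped. Summed platelet markers (12 genes, 11 past the threshold upward) lay at 2275 to 4789 CPM in NM1 KO and 1111 to 1447 CPM in NM1 WT. Summed stromal markers (11 genes, 6 past it upward) lay at 1277 to 2140 CPM in NM1 KO and 589 to 705 CPM in NM1 WT. Summed eosinophil, basophil and mast cell markers (10 genes, 5 past it downward) lay at 886 to 1303 CPM in NM1 KO and 2365 to 3685 CPM in NM1 WT. Summed skeletal muscle markers (10 genes, 6 past it upward) lay at 134 to 163 CPM in NM1 KO and 41.8 to 51.6 CPM in NM1 WT, and no marker of these lists was at 0 in all mice. The part of these cells in the values that follow was not tested.

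p53 binds DNA as pairs of a 10-base unit, the p53 recognition decamer. RefSeq promoter windows, 250 bases before to 50 bases after a start site on GRCm38.p6, were at hand for 26 of the 34 members, and 10 of these (38.5%) held at least 1 decamer, against 9.55% of 27025 genes with a window. The decamer reads as its own pattern on the other strand, so both strands were searched at once. A pair with at most 13 bases between was held by 1 member, Cdkn1a (3.85%), and by 0.074% of all genes. The windows of 6 of the 10 are shown as examples, chosen to cover the feedback loop, arrest, apoptosis and stress metabolism; capitals mark the decamer, or for Cdkn1a the pair with the bases between. They lie at chr17:29090886-29090957 (plus strand) for Cdkn1a, chr10:117710915-117710964 (minus strand) for Mdm2, chr10:41887246-41887295 (plus strand) for Sesn1, chr6:67037418-67037467 (minus strand) for Gadd45a, chr7:45467070-45467119 (minus strand) for Bax and chr11:40755442-40755491 (minus strand) for Ccng1.
Cdkn1a: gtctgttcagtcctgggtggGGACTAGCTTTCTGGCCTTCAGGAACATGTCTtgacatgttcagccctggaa
Mdm2: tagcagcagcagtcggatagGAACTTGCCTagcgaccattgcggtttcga
Sesn1: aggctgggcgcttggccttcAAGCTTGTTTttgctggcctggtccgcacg
Gadd45a: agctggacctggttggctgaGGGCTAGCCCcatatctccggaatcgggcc
Bax: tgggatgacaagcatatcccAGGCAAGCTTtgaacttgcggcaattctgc
Ccng1: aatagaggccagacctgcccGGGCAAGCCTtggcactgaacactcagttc
The other members with a decamer were Aen, Ei24, Polk and Trp53. No window was at hand for 8 members, Pmaip1, Perp, Trp53inp1, Zmat3, Tnfrsf10b, Xpc, Ddb2 and Rrm2b, which were not searched. A match describes letters only and is not a measured binding site.

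Of the 34 members, 33 passed the filter on low counts, and the marrow expressed most of them at steady levels. Per kilobase of exon, the scale used here to set genes against each other, 29 members lay at 1 or more CPM per kilobase in both genotypes. Btg2, an antiproliferative regulator of mRNA decay, stood at the top with 123 ± 4.13 CPM per kilobase in NM1 KO and 116 ± 10.5 in NM1 WT (SD, n = 3 each). Gadd45a, a stress sensor that activates p38 signalling, had 116 ± 7.67 and 114 ± 16.6 CPM per kilobase in NM1 KO and NM1 WT, so the order of these 2 genes lies within their spread. Bax, the pore former of mitochondrial apoptosis, came next with 44.8 ± 1.71 and 47.7 ± 2.24 CPM per kilobase in NM1 KO and NM1 WT.

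Trp53 itself, with 19.2 ± 3.36 CPM per kilobase in NM1 KO and 19.8 ± 1.89 in NM1 WT, stood close to Mdm2, with 17.1 ± 0.15 and 18.3 ± 1.44 CPM per kilobase in the same order. At the low end were Tnfrsf10b, Atm, Atr and Zmat3, all under 1 CPM per kilobase in both genotypes. The length is the union of all annotated exons, 23629 bases for Atr and 11435 for Zmat3. A union longer than the transcript in use lowers the value, so this order is approximate. Eda2r, an X-linked receptor of the tumour necrosis factor family, had 4, 6 and 0 counts in NM1 KO and 4, 4 and 2 counts in NM1 WT, and was left out of the test.

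**Figure D1:**
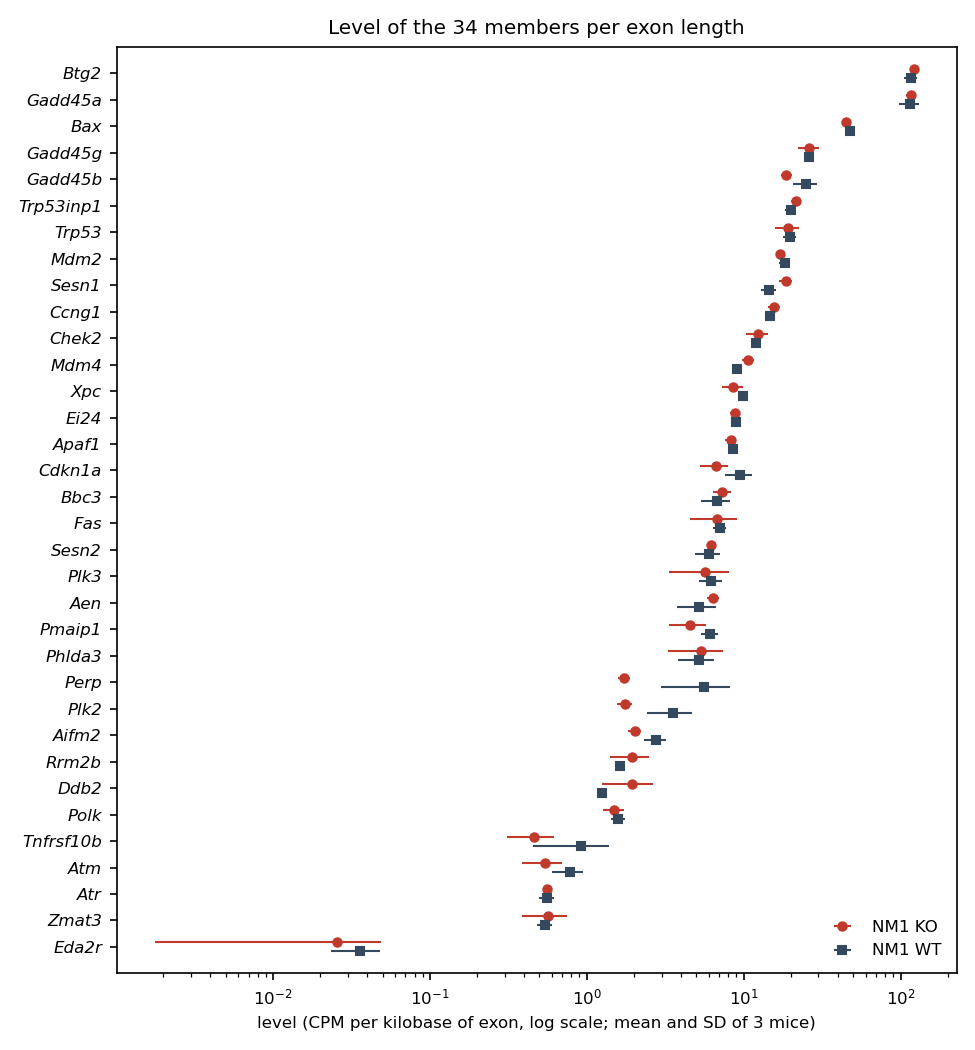
Mean level of each of the 34 members in CPM per kilobase of exon (log axis), with bars for the SD of 3 mice; red circles are NM1 KO and dark squares NM1 WT. Btg2 and Gadd45a lie above 100 in both genotypes, and in most rows the bars of the genotypes overlap.

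Across the genome, 0.776% of the 15069 genes tested with edgeR's quasi-likelihood method had an adjusted p under 0.05, and of the 33 members 0 did. At an unadjusted p under 0.05 there were 5 members, Sesn1 with a positive and Perp, Plk2, Cdkn1a and Gadd45b with a negative log2 fold change, against 16.8% of all tested genes. DESeq2 called Perp and Plk2, in a fit that called 786 of 24358 genes. Limma-voom called no member, with 37 of 15069 genes called. The median log2 fold change of the members, NM1 KO over NM1 WT, was -0.02, beside 0.00 for all tested genes, with 15 members positive and 18 negative. The values of 8 members did not overlap between the genotypes, 3 higher and 5 lower in NM1 KO, or 24.2% of those tested, against 20.5% of all tested genes.

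Within the main fit, the intervals limit the size of a difference in RNA of the whole marrow, not in RNA per cell. The 95% interval of the fold change lay within 1.5-fold in either direction for 16 of the 33 members, and within 2-fold for 28. The 5 others were Perp, Plk2, Tnfrsf10b, Atm and Ddb2, and of these Perp and Plk2 had intervals wholly below 0. These intervals are for single genes and are not adjusted for the number of genes tested.

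**Figure D2:**
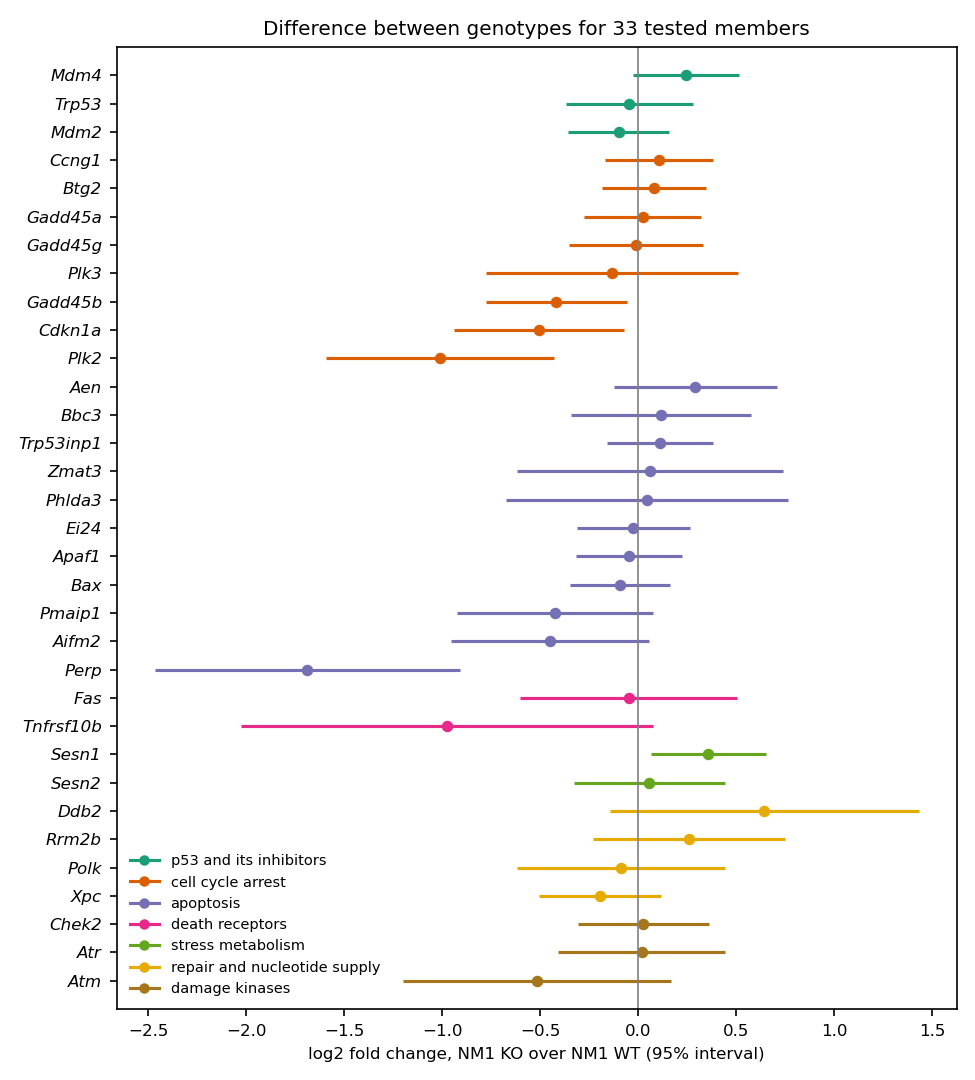
Log2 fold change, NM1 KO over NM1 WT, of the 33 tested members with its 95% interval, coloured by role. Perp (-1.69) and Plk2 (-1.01) lie farthest to the left and Ddb2 (0.64) farthest to the right, and 20 members lie within 0.2 of 0.

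Trp53 (ENSMUSG00000059552, chromosome 11, 69580359 to 69591873 on GRCm38) had 75.9, 65.1 and 92.1 CPM in the NM1 KO mice and 75.8, 89.0 and 75.7 CPM in the NM1 WT mice. The lowest and the highest library were both NM1 KO, and the NM1 WT values lay between them. Its log2 fold change was -0.04 (SE 0.15, 95% interval -0.37 to 0.28, adjusted p = 0.916). Trp53 lies 6.07 Mb from Myo1c on the same chromosome, where Ccng1 lies 34.9 Mb away, and the strain origin of the DNA around the targeted gene was not tested.

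Mdm2 had 87.8, 86.3 and 86.7 CPM in NM1 KO and 101, 86.1 and 92.7 CPM in NM1 WT. The NM1 KO values lay close together and overlapped those of NM1 WT (log2 fold change -0.10, SE 0.12, adjusted p = 0.726). Mdm4 had 175, 149 and 152 CPM in NM1 KO and 125, 135 and 142 CPM in NM1 WT. All NM1 KO values of Mdm4 lay above all NM1 WT values, yet its log2 fold change of 0.24 (SE 0.12) had adjusted p = 0.35. The ratio of Mdm4 to Mdm2 per exon length, which library scaling cannot alter, was 0.684, 0.593 and 0.603 in NM1 KO and 0.427, 0.537 and 0.528 in NM1 WT. The ratios did not overlap, and a two-sided exact permutation test gave p = 0.1, the smallest that 3 mice against 3 allow, and adjusted p = 0.3 over the 6 ratios computed. All 6 were chosen after the values of their genes were seen. Since Mdm4 alone did not overlap either, its ratio to Mdm2 is not separate evidence.

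**Figure D3:**
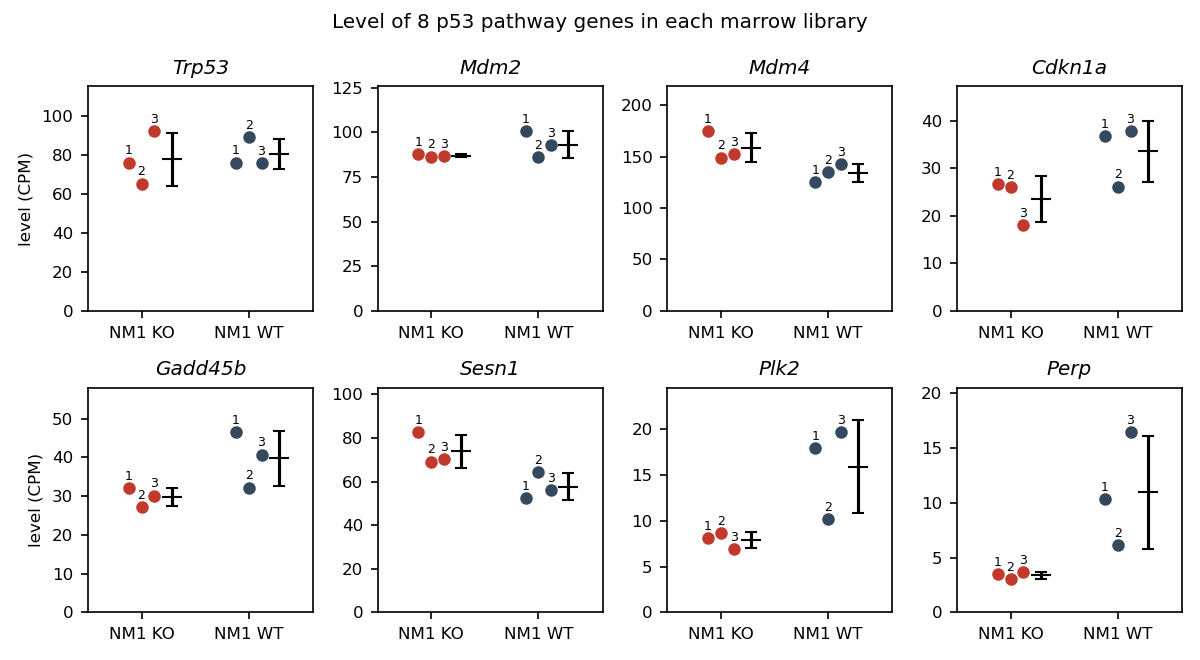
Level in CPM of 8 members in each library (dots, numbered by mouse), with the mean and SD of 3 mice beside them, NM1 KO in red and NM1 WT in dark blue. The 8 include every member with an unadjusted p under 0.05, so they are not typical of the 33 tested members. Perp and Plk2 lie lower in all 3 NM1 KO mice than in any NM1 WT mouse, and NM1 WT 2 is the lowest NM1 WT mouse for Mdm2, Cdkn1a, Gadd45b, Plk2 and Perp.

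Among the 8 genes of cell cycle arrest, log2 fold changes ran from -1.01 to 0.11, 3 positive and 5 negative. Cdkn1a (chromosome 17, 29090976 to 29100727) encodes p21, the inhibitor of cyclin-dependent kinases through which p53 stops the cycle, and is the member whose window held a pair of decamers. It had 26.7, 26.1 and 18.1 CPM in the NM1 KO mice and 36.8, 26.2 and 37.9 CPM in the NM1 WT mice. NM1 WT 2 sat at the level of NM1 KO 1 and 2, so the groups overlapped. The log2 fold change was -0.51 (SE 0.20, adjusted p = 0.225), with a 95% interval of -0.94 to -0.07.

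Plk2 (chromosome 13, 110395046 to 110400844), a polo-like kinase induced by stress, had 8.09, 8.66 and 6.94 CPM in NM1 KO and 18, 10.2 and 19.7 CPM in NM1 WT. The groups did not overlap, and NM1 WT 2 lay nearest to the NM1 KO mice. The log2 fold change was -1.01 (SE 0.27, adjusted p = 0.104). It passed without NM1 WT 2 (adjusted p = 0.0296), with DESeq2 (0.011) and with no filter on low counts (0.00608). The fit without NM1 WT 2 held no NM1 WT mouse with Y-linked reads. Over all alternatives the adjusted p of Plk2 ranged up to 0.372. The ratio of Plk2 to Plk3 per exon length overlapped between the genotypes (log2 difference -0.74, two-sided exact permutation p = 0.2, adjusted p = 0.3). Plk3 had 15.9, 19.4 and 7.78 CPM in NM1 KO and 15.1, 18.7 and 13.5 CPM in NM1 WT, with NM1 KO 3 apart from the rest and adjusted p = 0.871.

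The 3 Gadd45 genes encode small stress proteins that activate the p38 pathway. Gadd45b had 32.0, 27.2 and 30.2 CPM in NM1 KO and 46.4, 32.2 and 40.7 CPM in NM1 WT (log2 fold change -0.42, SE 0.16, adjusted p = 0.231). The gap between the groups was narrow, with NM1 WT 2 just above NM1 KO 1. Gadd45a had 197, 196 and 220 CPM in NM1 KO and 226, 169 and 209 CPM in NM1 WT, and Gadd45g 32.4, 34.1 and 25.3 CPM in NM1 KO and 31.6, 29.6 and 31.3 CPM in NM1 WT. Both overlapped, with log2 fold changes of 0.02 and -0.01. The ratio of Gadd45b to Gadd45a per exon length was 0.18, 0.154 and 0.152 in NM1 KO and 0.228, 0.212 and 0.216 in NM1 WT, with no overlap (two-sided exact permutation p = 0.1, adjusted p = 0.3). Gadd45b alone did not overlap either, and the ratio was chosen after these values were seen, so it is not separate evidence. An antisense gene shares 19.1% of the exon length of Gadd45a, and without a stated strand setting their reads cannot be told apart. Ccng1, the p53 target cyclin G1, had 52.0, 60.6 and 53.2 CPM in NM1 KO and 53.3, 50.3 and 50.6 CPM in NM1 WT. Btg2 had 330, 350 and 330 CPM in NM1 KO and 350, 294 and 310 CPM in NM1 WT. Both overlapped between the genotypes, at 0.11 (SE 0.13) for Ccng1 and 0.08 (SE 0.12) for Btg2 on the log2 scale, with intervals within 1.5-fold.

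Perp (ENSMUSG00000019851, chromosome 10, 18845020 to 18857073) encodes a p53-induced membrane protein found in desmosomes and linked to apoptosis, and was the member with the smallest p. It had 3.48, 3.04 and 3.66 CPM in the NM1 KO mice, from 66 to 80 counts, and 10.3, 6.14 and 16.4 CPM in the NM1 WT mice, from 106 to 250 counts. The NM1 KO values lay close together and below all NM1 WT values, which spread over more than 10 CPM. Its log2 fold change was -1.69 (SE 0.36, 95% interval -2.47 to -0.91), and its adjusted p of 0.0516 missed the threshold of 0.05.

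Over the alternatives, the log2 fold change of Perp was negative in each case, from -1.97 without NM1 WT 2 to -1.28 without NM1 WT 3, while its adjusted p ranged from 4.52e-05 to 0.221. It was 0.0166 without NM1 WT 2, 2.63e-04 with DESeq2 and 4.52e-05 with no filter on low counts. With the presence of Y-linked reads as a covariate, the log2 fold change was -1.39 and the adjusted p 0.13. The NM1 WT mice with most Perp, NM1 WT 3 and NM1 WT 1, were those without Y-linked reads. NM1 KO 3, also without them, had 3.66 CPM. Y-linked reads were unevenly spread over the genotypes, and a part of sex in these values was not tested.

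Of the mitochondrial death genes, Bax had 67.6, 71.1 and 72.9 CPM in NM1 KO and 71.2, 77.9 and 76.5 CPM in NM1 WT, a log2 fold change of -0.09 (SE 0.12) with an interval of -0.35 to 0.16. Bbc3, which encodes the killer protein PUMA, had 13.4, 17.4 and 15.8 CPM in NM1 KO and 13, 12.3 and 17.7 CPM in NM1 WT, and the groups overlapped (adjusted p = 0.833). Pmaip1, which encodes NOXA, had 12.3, 15.8 and 9.19 CPM in NM1 KO and 18.5, 14.5 and 17 CPM in NM1 WT (log2 fold change -0.43, SE 0.23, adjusted p = 0.376). The NOXA values overlapped, since NM1 KO 2 lay above NM1 WT 2. Apaf1, the scaffold of the apoptosome, had 82.0, 72.5 and 70.8 CPM in NM1 KO and 72.8, 82.7 and 77.6 CPM in NM1 WT. Ei24, an endoplasmic reticulum protein, had 39.6, 45.5 and 43.7 CPM in NM1 KO and 41.9, 44.3 and 44.7 CPM in NM1 WT. The log2 fold changes were -0.05 (SE 0.12) for Apaf1 and -0.02 (SE 0.13) for Ei24.

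Of the other apoptosis members, Aen, a p53-induced nuclease, had 40.6, 36.4 and 34.3 CPM in NM1 KO and 23.5, 39.5 and 27.8 CPM in NM1 WT. NM1 WT 2 again lay among the NM1 KO mice (adjusted p = 0.477). Aifm2, a coenzyme Q reductase that guards against ferroptosis, had 8.62, 7.46 and 8.91 CPM in NM1 KO and 11.4, 9.50 and 13.2 CPM in NM1 WT, with no overlap but adjusted p = 0.356. Trp53inp1, a p53 cofactor active in autophagy, had 139, 129 and 150 CPM in NM1 KO and 137, 133 and 117 CPM in NM1 WT, which overlapped (log2 fold change 0.11, SE 0.12). Phlda3, an inhibitor of AKT, had 8.05, 11.6 and 5.25 CPM in NM1 KO and 9.43, 5.68 and 9.05 CPM in NM1 WT. Zmat3, an RNA-binding splicing regulator, had 6.35, 8.57 and 4.45 CPM in NM1 KO and 6.04, 5.62 and 6.95 CPM in NM1 WT. The NM1 KO mice spanned the NM1 WT values of both genes, and the intervals, around 0.05 (SE 0.33) for Phlda3 and 0.06 (SE 0.31) for Zmat3, reached beyond 1.5-fold on each side.

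Of the death receptors, Tnfrsf10b, the mouse TRAIL receptor, had 2.78, 3.22 and 1.59 CPM in NM1 KO and 6.24, 2.09 and 6.69 CPM in NM1 WT. NM1 WT 1 and 3 stood above all other mice, and NM1 WT 2 lay among the NM1 KO values (log2 fold change -0.98, SE 0.48, adjusted p = 0.334). Fas had 15.0, 8.93 and 18.2 CPM in NM1 KO and 16.0, 14.0 and 13.5 CPM in NM1 WT, and its lowest and highest values were both in NM1 KO (adjusted p = 0.95).

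The sestrins restrain mTORC1 under stress. Sesn1 (chromosome 10, 41809935 to 41908424) had 82.5, 69.1 and 70.2 CPM in NM1 KO and 52.5, 64.4 and 56.2 CPM in NM1 WT. All NM1 KO mice lay above all NM1 WT mice, with NM1 WT 2 nearest to them, and the log2 fold change was 0.36 (SE 0.13, 95% interval 0.06 to 0.65, adjusted p = 0.21). Sesn2 had 20.4, 22.8 and 21.8 CPM in NM1 KO and 24.8, 20.2 and 17.4 CPM in NM1 WT, with a log2 fold change of 0.06 (SE 0.18). The ratio of Sesn1 to Sesn2 overlapped too (log2 difference 0.29, two-sided exact permutation p = 0.4, adjusted p = 0.4).

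Among the repair members, Ddb2, which recognises ultraviolet damage, had 7.48, 3.68 and 4.88 CPM in NM1 KO and 3.53, 3.59 and 3.15 CPM in NM1 WT. NM1 KO 1 stood apart from all other mice and NM1 KO 2 lay just above NM1 WT 2 (log2 fold change 0.64, SE 0.36, adjusted p = 0.398). Ddb2 shares 23.8% of its exon length with Acp2 on the other strand, so its counts are uncertain. Xpc, the damage sensor of nucleotide excision repair, had 49.3, 39.2 and 53 CPM in NM1 KO and 53.9, 53.7 and 54.7 CPM in NM1 WT, a separation that hung on a gap of under 1 CPM (adjusted p = 0.527). Rrm2b, the p53-induced ribonucleotide reductase subunit, had 21.1, 12.2 and 20.1 CPM in NM1 KO and 15.5, 14.0 and 15.1 CPM in NM1 WT, with NM1 WT inside the NM1 KO range (adjusted p = 0.609). Polk, a translesion polymerase, had 8.70, 9.30 and 6.94 CPM in NM1 KO and 8.28, 9.85 and 8.39 CPM in NM1 WT, also overlapping (log2 fold change -0.09, SE 0.24).

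Of the damage kinases, Atm had 5.70, 3.96 and 7.17 CPM in NM1 KO and 9.23, 5.97 and 8.92 CPM in NM1 WT (log2 fold change -0.52, SE 0.31, adjusted p = 0.439). NM1 WT 2 lay among the NM1 KO mice. Atr had 12.7, 14.2 and 13 CPM in NM1 KO and 13.7, 11.5 and 14.2 CPM in NM1 WT, and Chek2, the kinase below ATM, 35.9, 31.4 and 43.1 CPM in NM1 KO and 35.0, 35.4 and 38.1 CPM in NM1 WT. Both overlapped between the genotypes, and their log2 fold changes were 0.02 (SE 0.20) and 0.03 (SE 0.15). The ratio of Atm to Atr overlapped as well (log2 difference -0.55, two-sided exact permutation p = 0.2, adjusted p = 0.3).

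**Figure D4:**
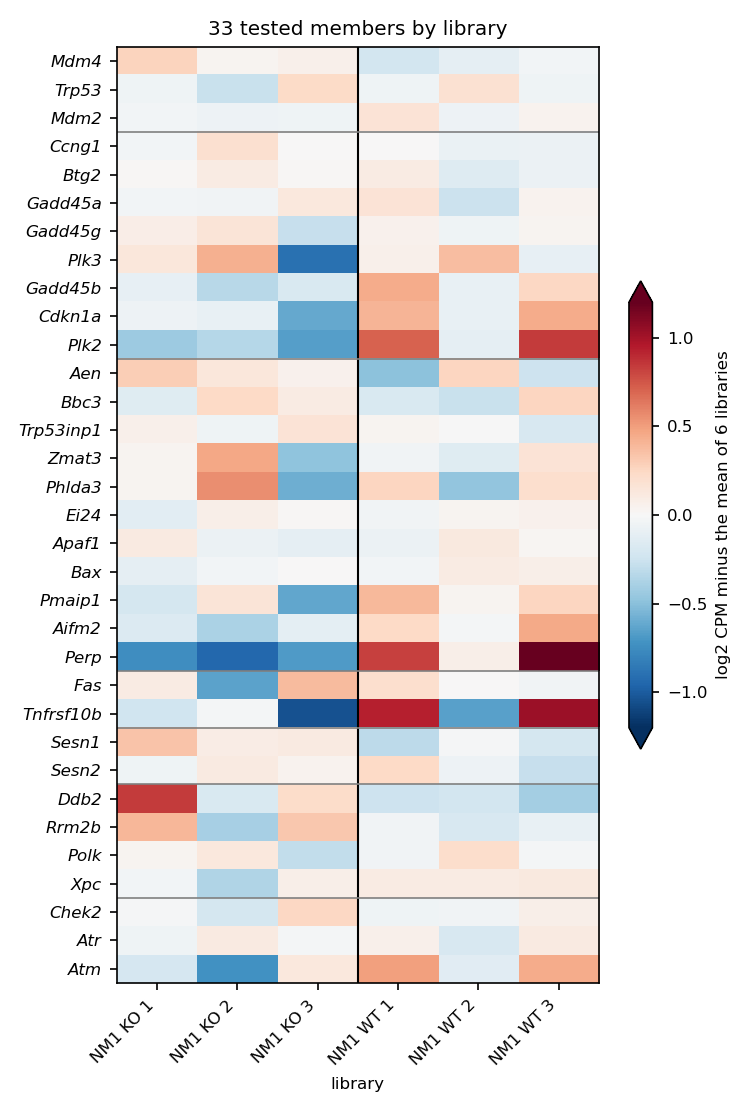
Log2 CPM of the 33 tested members in each library minus the gene's mean over the 6 libraries, grouped by role; red is above and blue below that mean, with values past the ends of the scale drawn in its end colours. Perp is blue in all 3 NM1 KO mice; Perp, Plk2 and Tnfrsf10b are strongly red in NM1 WT 1 and NM1 WT 3 but not in NM1 WT 2. Ddb2 stands out in NM1 KO 1, and Plk3 and Tnfrsf10b in NM1 KO 3.

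The 5 members that lay lower in NM1 KO without overlap were Gadd45b, Plk2, Perp, Aifm2 and Xpc, and the NM1 WT library nearest to the NM1 KO mean was NM1 WT 2 in all 5. Over all 33 tested members it was NM1 WT 2 in 15, NM1 WT 1 in 12 and NM1 WT 3 in 6. Of the 3 members higher in NM1 KO without overlap, the nearest was NM1 WT 2 in 2 (Sesn1 and Ddb2) and NM1 WT 3 in 1 (Mdm4). The same count over all tested genes was not made, so whether this pattern is particular to the members was not tested. NM1 WT 2 was also the only NM1 WT library with Y-linked reads. Without NM1 WT 2, 14 members (42.4%) did not overlap, a share close to the 42.5% of all genes tested without it. Perp and Plk2 passed the threshold in that fit, as did 2.18% of all its genes. The 10 members with a p53 decamer in the promoter window had log2 fold changes from -0.51 (Cdkn1a) to 0.36 (Sesn1), 4 positive and 6 negative, and 0 of them passed. Perp, Tnfrsf10b and Ddb2 had no window and were not searched for a decamer.

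The other genes of the pathway were read from 8 lists, and no gene of any list passed over all genes. Of all 15069 tested genes, 7562 were positive and 7507 negative on the log2 scale, with a median of 0.00. Of 25 p53 targets outside the members, 18 were positive and 7 negative on the log2 scale (median 0.13). Steap3, a p53-induced metalloreductase, had 48.0, 69.7 and 63.1 CPM in NM1 KO and 31.5, 48.0 and 32.3 CPM in NM1 WT, so that NM1 WT 2 met the lowest NM1 KO mouse (adjusted p = 0.119). The carbonyl reductase gene Dcxr stood at -0.61 (adjusted p = 0.174). Of 18 p53 regulators tested, 12 were positive, with a median of 0.04.

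Cdkn2a, which encodes the MDM2 inhibitor ARF and the cell cycle inhibitor p16 in 1 count, had 11.3, 8.75 and 7.32 CPM in NM1 KO and 34.1, 10.8 and 29.5 CPM in NM1 WT. NM1 WT 1 and 3 stood apart from the 4 other mice, as they did for Tnfrsf10b (log2 fold change -1.44, SE 0.35, adjusted p = 0.0869). Sirt1, a deacetylase that acts on p53, had 51.3, 61.1 and 48.8 CPM in NM1 KO and 36.7, 38.7 and 27.6 CPM in NM1 WT, with no overlap (log2 fold change 0.65, SE 0.16, adjusted p = 0.0933).

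Of 22 genes of damage sensing and checkpoint signalling, 16 were positive, with a median of 0.10. Chek1, the kinase below ATR, had 24.9, 30.2 and 28.6 CPM in NM1 KO and 14.0, 20.1 and 16.0 CPM in NM1 WT. The groups did not overlap, and the log2 fold change was 0.74 (SE 0.18, adjusted p = 0.0858), against 0.03 for Chek2. Mdc1, which binds marked chromatin at breaks, had 56.3, 64.5 and 64.7 CPM in NM1 KO and 47.0, 44.3 and 49.6 CPM in NM1 WT (adjusted p = 0.154).

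Of 19 double-strand break repair genes 16 were positive (median 0.18), and of 15 interstrand crosslink repair genes 12 (median 0.22). Values did not overlap between the genotypes for 0% of the former and 13.3% of the latter, against 20.5% of all tested genes. Polq, the polymerase of alternative end joining, and Xrcc5, a Ku subunit, stood at 0.44 and 0.55 on the log2 scale, and the crosslink repair genes Fancm and Fancb at 0.86 and 0.73, with adjusted p between 0.134 and 0.369. Of 23 nucleotide and base excision repair genes 9 were positive (median -0.03), with the XPC partners Rad23b and Cetn2 at 0.21 and -0.19.

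Of 24 tested BCL2 family and caspase genes 13 were positive, with a median of 0.03. Bcl2, which holds BAX in check, had 58.1, 39.7 and 35.2 CPM in NM1 KO and 58.3, 50.4 and 74.4 CPM in NM1 WT (log2 fold change -0.46, SE 0.20, adjusted p = 0.278), and Bad a log2 fold change of -0.29. The ratio of Bax to Bcl2 per exon length was 6.76, 10.4 and 12.0 in NM1 KO and 7.10, 8.99 and 5.98 in NM1 WT, which overlapped (two-sided exact permutation p = 0.3, adjusted p = 0.36). Of 18 cell cycle genes that p21 is known to lower, 11 were positive, with a median of 0.04. Mki67, the proliferation marker, had 1004, 1220 and 1302 CPM in NM1 KO and 839, 912 and 806 CPM in NM1 WT (log2 fold change 0.46, SE 0.13, adjusted p = 0.128), and Ccne2, cyclin E2, a log2 fold change of 0.54 (adjusted p = 0.142).

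**Figure D5:**
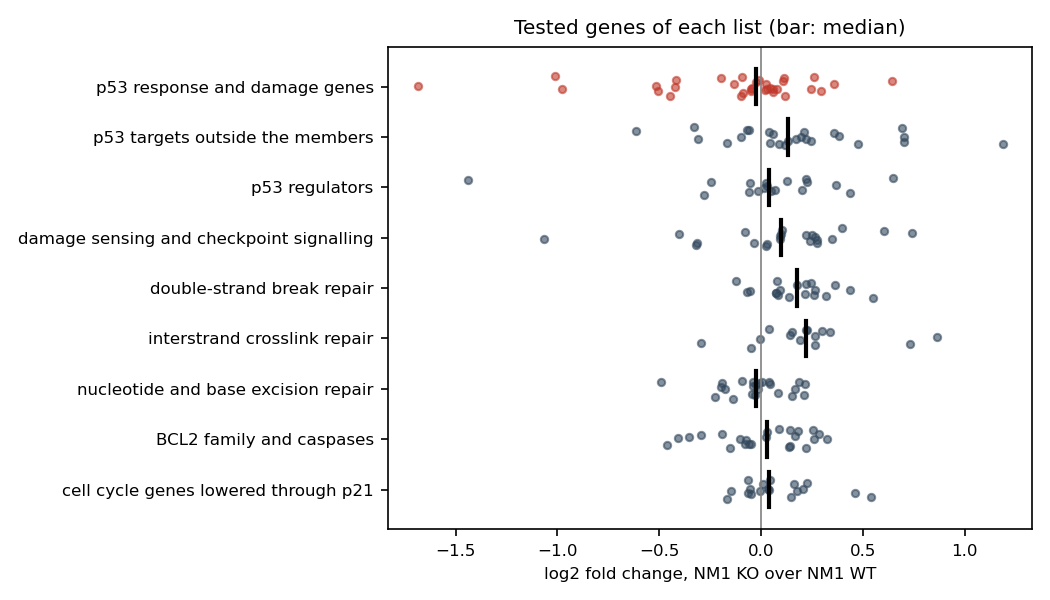
Log2 fold change, NM1 KO over NM1 WT, of each tested gene of the p53 response and damage genes (red) and of 8 other lists of the pathway (dark blue), with the median of each list as a black bar. All medians lie between -0.03 and 0.22, and the p53 response and damage genes reach farthest to the left, with Perp at -1.69.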

How the data were processed

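The authors deposited raw counts per Ensembl gene, 1 file per mouse. The tools named, per the submitters' processing notes, were HTSeq, HISAT2 2.0.4, SAMtools 0.1.19, FastQC and Trimmomatic 0.36, with the builds GRCm38 and mm10; no source used here gives the annotation release, strand setting or counting options. Of counts from 1 to 20, 98.7% to 98.9% were even in each library, as when both mates of a pair are counted, so halved counts were tried as an alternative. Identifiers were matched to GENCODE M21 (46091 of 46603), and exon length is the union of a gene's exons.

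Genotypes were compared with edgeR 4.0.16 (R 4.3.3), a quasi-likelihood test with filterByExpr defaults, TMM factors and genotype as the only term, with p adjusted by Benjamini-Hochberg over 15069 genes. SE is the log2 fold change divided by the root of F. The code was tested on simulated data. Alternatives were other scalings and filters, DESeq2 1.42.0, limma-voom 3.58.1, a replicate block, leaving out each library or the genes within 20 Mb of Myo1c, and the presence of Y-linked reads as a covariate.

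The 34 members and all lists were chosen with earlier results of these data known, and the 6 ratios after their genes' values were seen. All members are accounted for; of each other list, the 2 genes of smallest p are named, as none passed. Rfwd2 alone found no match by symbol.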

Additional observations from a re-analysis of the deposited data

How the results depend on the processing

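The count of genes past the threshold, 117 as reported, was 1138 with no filter on low counts, 786 with DESeq2, 421 with the replicate block, 60 with the presence of Y-linked reads as a covariate and 37 with limma-voom, and ranged from 26 (without NM1 WT 1) to 344 (without NM1 WT 2) when 1 library was left out. The number of members past it, 0 as reported, was 2 with no filter and 2 with DESeq2 (Perp and Plk2 in both), 1 with the replicate block (Perp, adjusted p = 0.0284), and 0 to 2 when 1 library was left out, the 2 being Perp and Plk2 without NM1 WT 2. Of all genes, 4.67% passed with no filter and 2.18% without NM1 WT 2. The members without overlap, 8 as reported, were 6 (18.2%, against 20.8% of all genes) with upper-quartile scaling. With no filter they were 7 (21.2%, against 15.3% of the 24358 genes in that fit). They ranged from 9 to 14 when 1 library was left out, or 27.3% to 42.4% of members, against 25.2% to 42.5% of all genes in those fits, where 2 mice against 3 separate more easily by construction. With the replicate number as a block the samples share a number only: deviations of same-numbered mice correlated at 0.064, 0.115 and 0.061, although each library correlated best with its own number.

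Signs turned for members near 0. They were -0.0010 for Gadd45a and -0.0049 for Atr with upper-quartile scaling, 0.0065 for Gadd45g with no filter, and -0.012 for Phlda3, -0.065 for Zmat3 and 0.038 for Fas with the Y-linked covariate. Leaving out 1 library, log2 fold changes ran for Trp53 from -0.19 to 0.071, for Gadd45a from -0.084 to 0.12, for Gadd45g from -0.092 to 0.11, for Plk3 from -0.41 to 0.16, for Phlda3 from -0.27 to 0.29, for Ei24 from -0.066 to 0.028, for Apaf1 from -0.12 to 0.0038, for Zmat3 from -0.19 to 0.27, for Fas from -0.28 to 0.20, for Sesn2 from -0.063 to 0.20, for Polk from -0.17 to 0.024, for Atr from -0.063 to 0.068, for Chek2 from -0.10 to 0.13. The cause of these shifts was not tested. Among tested members, counts per library were lowest for Tnfrsf10b (34 to 102), Ddb2 (48 to 172) and Perp (66 to 250).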
